A study of Mus musculus with 6 samples.

Results

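Gas5, Snhg1, Snhg3, Snhg5, Snhg6, Snhg8 and Snhg12 are long noncoding genes whose introns carry small nucleolar RNAs (snoRNAs). They were selected by name, 7 of the 25241 genes in the deposited tables, and all 7 passed the filter on low counts that left 14369 genes for testing. The study used primary neural stem cells of wild type mice at passage 3, isolated from the subgranular zone, the germinal layer of the hippocampal dentate gyrus. It compared 3 libraries from cultures given 0.8 μM CdCl2 (cadmium chloride) for 72 h with 3 libraries from untreated control cultures. The labels call the libraries of each group biological replicates. They give neither the age of the animals nor whether replicates came from separate animals or cultures, so p-values measure the spread between these libraries.

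A snoRNA host gene is transcribed as a long precursor and spliced, and the snoRNAs are released from the excised introns. Box C/D snoRNAs guide ribose methylation of ribosomal RNA and box H/ACA snoRNAs guide the conversion of uridine to pseudouridine, each within a small ribonucleoprotein (snoRNP). The spliced exons of many such hosts start with a terminal oligopyrimidine (TOP) tract, as ribosomal protein mRNAs do, and are bound by ribosomes at short reading frames, which exposes them to nonsense-mediated decay. Gas5 takes its name from its accumulation in growth-arrested mouse fibroblasts. The tables count reads per host gene after enrichment for mRNA, so they measure host transcripts and not the snoRNAs, which were not analysed here.

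In GENCODE M21, on build GRCm38, 29 snoRNA genes lie inside the 7 hosts on the same strand. Gas5 holds 10, Snhg1 holds 8, Snhg12 holds 5, Snhg3 and Snhg5 hold 2 each, and Snhg6 and Snhg8 hold 1 each. The snoRNAs with a Snord symbol (box C/D) or a Snora symbol (box H/ACA) divide the hosts by cargo. Such a symbol is given to 4 of the 10 snoRNA genes in Gas5 and 1 of the 8 in Snhg1, and to all in the other hosts. The snoRNAs without one were not classed. Gas5, Snhg1, Snhg5 and Snhg6 carry named box C/D snoRNAs only, Snhg3 and Snhg8 named box H/ACA snoRNAs only, and Snhg12 both kinds. One snoRNA each of 6 hosts is shown because this cargo is what sets the hosts apart from other noncoding genes. The capitals mark a box C core (tgatga) near the 5′ end and a box D (ctga) near the 3′ end, or the ACA box near the 3′ end of Snora24. In Snord22 no such box C core was found within the searched bases. The sequences are GENCODE's, 5′ to 3′, on GRCm38, which is not the build named for the deposited tables.
Snord47 in Gas5, chr1:161038082-161038158, plus strand: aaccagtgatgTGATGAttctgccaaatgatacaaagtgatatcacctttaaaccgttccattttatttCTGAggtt
Snord22 in Snhg1, chr19:8725866-8725991, plus strand: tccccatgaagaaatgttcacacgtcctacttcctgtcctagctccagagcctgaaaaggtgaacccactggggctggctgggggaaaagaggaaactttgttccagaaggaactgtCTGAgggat
Snord50a in Snhg5, chr9:88521529-88521600, minus strand: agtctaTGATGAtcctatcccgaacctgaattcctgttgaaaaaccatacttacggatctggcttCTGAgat
Snord87 in Snhg6, chr1:9942463-9942549, minus strand: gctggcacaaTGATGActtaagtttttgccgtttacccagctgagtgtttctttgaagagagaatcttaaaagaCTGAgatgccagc
Snora24 in Snhg8, chr3:123507937-123508066, minus strand: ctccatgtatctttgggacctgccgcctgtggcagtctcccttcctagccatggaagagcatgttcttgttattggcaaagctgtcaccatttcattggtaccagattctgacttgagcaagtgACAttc
Snord99 in Snhg12, chr4:132310691-132310764, plus strand: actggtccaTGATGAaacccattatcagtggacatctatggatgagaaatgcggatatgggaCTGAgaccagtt

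The start regions show whether the hosts carry the pyrimidine tract that gives TOP transcripts their name. RefSeq windows on GRCm38.p6 matched 6 of the 7 hosts, and each line below gives 50 bases before the annotated start followed by 50 bases from it. Capitals mark the longest unbroken run of C and T that touches the stretch from 5 bases before the start to 10 bases after it. For Gas5, which has 2 annotated starts, the start with the longer run is shown.
Gas5, chr1:161035116-161035215, plus strand: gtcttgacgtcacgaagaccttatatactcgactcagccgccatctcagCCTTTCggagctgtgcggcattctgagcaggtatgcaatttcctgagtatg
Snhg1, chr19:8723437-8723536, plus strand: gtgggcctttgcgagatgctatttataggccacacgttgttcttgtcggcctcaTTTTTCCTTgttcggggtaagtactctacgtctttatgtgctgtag
Snhg3, chr4:132353637-132353736, minus strand: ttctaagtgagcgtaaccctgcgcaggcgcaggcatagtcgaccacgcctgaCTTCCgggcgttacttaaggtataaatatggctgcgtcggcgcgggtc
Snhg5, chr9:88522848-88522947, minus strand: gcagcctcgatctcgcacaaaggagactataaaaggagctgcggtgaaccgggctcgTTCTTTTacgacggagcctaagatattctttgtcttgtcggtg
Snhg8, chr3:123508287-123508386, minus strand: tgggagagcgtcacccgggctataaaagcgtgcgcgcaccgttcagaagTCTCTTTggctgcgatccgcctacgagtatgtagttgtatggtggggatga
Snhg12, chr4:132308628-132308727, plus strand: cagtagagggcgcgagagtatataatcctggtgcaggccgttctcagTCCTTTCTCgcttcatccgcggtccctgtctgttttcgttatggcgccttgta

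The pyrimidine runs were 5 to 9 bases long in these windows. A C followed by 4 bases that are each C or T began exactly at the annotated start in Gas5 and Snhg8, 2 of the 6 matched hosts, and in 2.51% of all 32851 RefSeq windows. Allowing that tract anywhere from 5 bases before the start to 10 bases after it gave 4 of 6 hosts (Gas5, Snhg3, Snhg8 and Snhg12) and 18.3% of all windows. Of these 4, Gas5 rose with cadmium and Snhg3, Snhg8 and Snhg12 were not called, while Snhg1 and Snhg5, without a match in the wider window, both rose. The difference was not tested. Over the full windows of 250 bases before and 50 after the start, on both strands, the cyclic AMP response element TGACGTCA was found in Gas5 alone (1.79% of all windows). The E-box CACGTG bound by Myc was found in 0 of 6 (7.15% of all windows) and the stress element TGATGNAA bound by ATF4 in 0 of 6 (3.97%). The metal response element core, searched as TGCGCNC, was found in Gas5, Snhg5 and Snhg8 (15.4% of all windows), and its other form TGCACNC in Snhg5 (12.6%). The antioxidant response element core TGACNNNGC was found in Snhg8 (12.4%). The letters TATAAA lay within 50 bases before the start, on the sense strand, in Snhg5 and Snhg8 (2.63%), a search chosen after the sequences were seen.

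The labelled cell type and other cell types were checked by marker genes, as summed CPM, counts per 1000000 counts of the library total. All 8 neural stem cell markers were tested with edgeR, 4 rose and 4 fell, and their summed level was 6965 to 7112 CPM in control and 7790 to 7964 CPM in cadmium libraries. The 6 astrocyte markers summed to 3945 to 4875 CPM in control and 1769 to 1918 CPM in cadmium libraries, and all 6 fell. Over all genes tested, 23.1% rose and 22.4% fell (edgeR adjusted p below 0.05). Oligodendrocyte lineage markers summed to 2989 to 3148 and 3101 to 3269 CPM, and neuron markers to 618 to 657 and 548 to 629 CPM. Microglia markers stayed at or below 0.663 CPM in sum, endothelial markers at or below 3.13 CPM with Cdh5 at 0 counts in every library, and pericyte and fibroblast markers were at 2.96 to 3.13 CPM in control and 1.33 to 1.37 CPM in cadmium libraries. Transcripts of 13 mitochondrial genes took 3.06% to 3.45% of counts. In bulk RNA, a change in the number of cells of a type and a change in RNA per cell cannot be told apart, and the part of these shifts in the host gene values was not tested.

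The hosts ranged widely in level per length, given as FPKM, reads scaled to gene length and to the library total. In control cultures Gas5 was highest at 74.7 ± 2.43 FPKM, followed by Snhg6 at 51.2 ± 1.28, Snhg1 at 25.4 ± 1.95, Snhg8 at 19.5 ± 1.11, Snhg3 at 13.6 ± 1.28, Snhg5 at 11.0 ± 0.718 and Snhg12 at 10.5 ± 1.18 FPKM (SD, n = 3). Ranges of neighbours in this order did not overlap except for Snhg5 (10.4 to 11.8 FPKM) and Snhg12 (9.67 to 11.8 FPKM). The order was the same in cadmium cultures, from 85.3 ± 3.28 FPKM for Gas5 to 9.95 ± 0.488 FPKM for Snhg12, and there no neighbouring ranges overlapped. Averaged over all 6 libraries, Gas5 exceeded 94.2% of the genes tested in FPKM and Snhg12 exceeded 61.5%. FPKM rests on the gene lengths behind the deposited values, 407 bases for Snhg6 to 1011 bases for Snhg5.

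**Figure D1:**
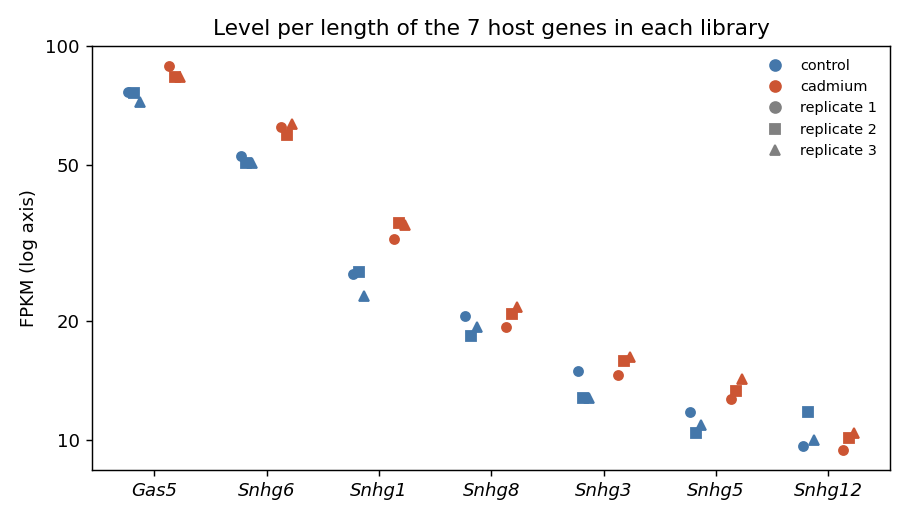
Level per length (FPKM, log axis) of the 7 host genes in each of the 6 libraries, with colour for group and marker shape for replicate. Gas5 and Snhg6 lie above 50 FPKM in every library, and Snhg5 and Snhg12 share the bottom of the range in control cultures and part in cadmium cultures.

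Of every 1000000 counts, the 7 hosts together took 122, 118 and 114 in control libraries 1 to 3, and 136, 136 and 139 in cadmium libraries 1 to 3. The means were 118 ± 3.84 and 137 ± 1.80 (SD, n = 3), a ratio of 1.16, and the groups did not overlap. Gas5 alone held 37.2% to 40.6% of these counts in each library. Library totals were 37710042 to 41523231 counts, and the 7 hosts held 4736 to 5666 counts of each.

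With cadmium, 4 of the 7 hosts rose (Gas5, Snhg1, Snhg5 and Snhg6), 0 fell and 3 were not called (Snhg3, Snhg8 and Snhg12). This was read against a wide background, since 45.5% of all genes tested were called in either direction while 23.1% rose and 22.4% fell (edgeR quasi-likelihood test, adjusted p below 0.05). For single genes, CPM is given on the TMM scale of edgeR, and ± stands for the SD (n = 3) beside a CPM and for the SE beside a log2 fold change. Cadmium CPM lay wholly above the control range in the same 4 hosts and overlapped it in the other 3. Among all genes tested the ranges were apart in 56.3%, above in 28% and below in 28.3%. The median log2 fold change of the 7 was 0.21, against -0.01 for all genes tested, where the middle 50% of genes lay between -0.22 and 0.18.

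**Figure D2:**
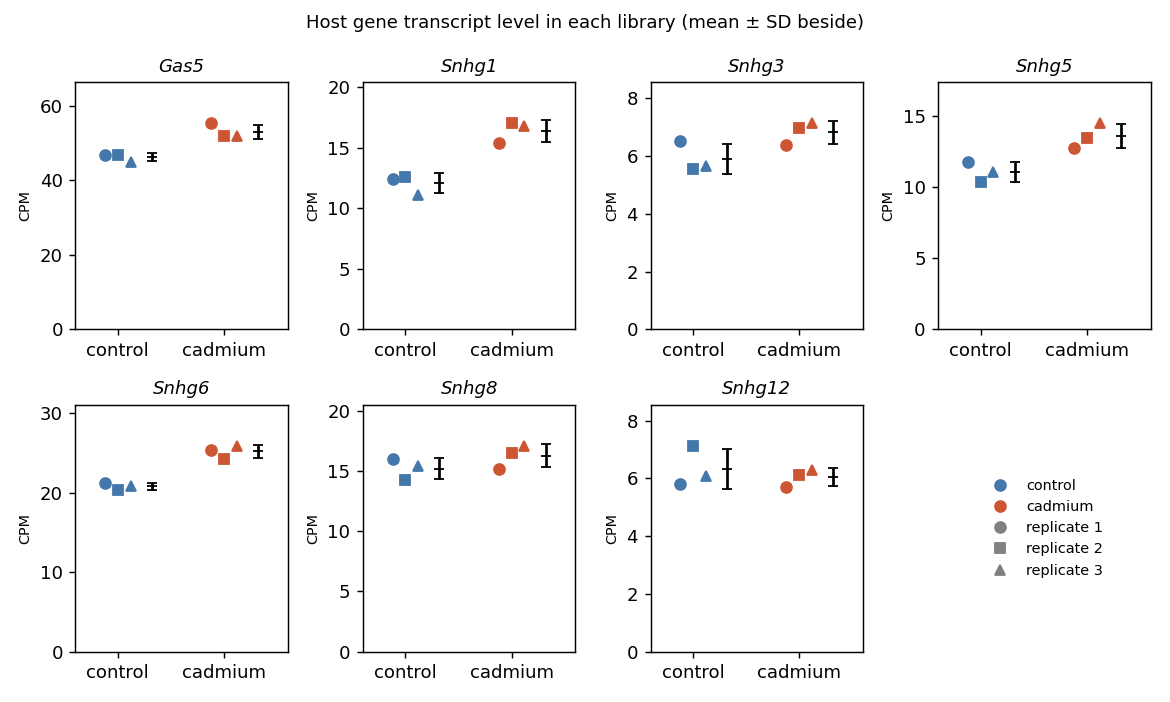
CPM of each host gene in each library, with the group mean ± SD (n = 3) drawn to the right of the points and each vertical axis starting at 0. The control and cadmium points are apart for Gas5, Snhg1, Snhg5 and Snhg6 and overlap for Snhg3, Snhg8 and Snhg12.

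Among the hosts of box C/D snoRNAs, Snhg1 changed most. Snhg1 (Entrez 83673, chromosome 19), which hosts Snord22, was at 12.4, 12.6 and 11.1 CPM in control libraries 1 to 3 and at 15.4, 17.0 and 16.8 CPM in cadmium libraries 1 to 3. Every cadmium library was above every control library. Its log2 fold change was 0.44 ± 0.08 (SE; 95% interval 0.26 to 0.62; edgeR adjusted p = 0.00058), a 1.36-fold rise that exceeded the log2 fold change of 90.7% of the genes tested.

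Snhg6 (Entrez 73824, chromosome 1), host of Snord87, was at 21.2, 20.3 and 20.8 CPM in control libraries 1 to 3, and at 25.4, 24.3 and 25.9 CPM in cadmium libraries 1 to 3. The groups were well apart relative to their spread, with SDs of 0.446 and 0.856 CPM. The log2 fold change was 0.28 ± 0.06 (SE; edgeR adjusted p = 0.0027). Snhg5 (Entrez 72655, chromosome 9), host of Snord50a and Snord50b, guides of ribosomal RNA methylation, was at 11.8, 10.4 and 11.1 CPM in control libraries 1 to 3, and at 12.8, 13.5 and 14.5 CPM in cadmium libraries 1 to 3. Its groups did not overlap either, although control replicate 1 came close to cadmium replicate 1. The log2 fold change was 0.29 ± 0.09 (SE; edgeR adjusted p = 0.013), and the call was lost without control replicate 2 (adjusted p = 0.058) or without cadmium replicate 3 (adjusted p = 0.076).

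Gas5 (Entrez 14455, chromosome 1), the most abundant host, was at 46.8, 46.8 and 45.0 CPM in control libraries 1 to 3, and at 55.3, 52.0 and 51.9 CPM in cadmium libraries 1 to 3. All cadmium libraries were above all control libraries. The log2 fold change was 0.20 ± 0.05 (SE; 95% interval 0.09 to 0.31; edgeR adjusted p = 0.0050), a 1.15-fold rise. With 1850 to 2248 counts a library, counting alone would give a coefficient of variation of about 2.29% in control libraries, and the observed one was 2.30%.

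The hosts of box H/ACA snoRNAs were not called. Snhg8 (Entrez 69895, chromosome 3), host of Snora24, was at 16.0, 14.3 and 15.4 CPM in control libraries 1 to 3, and at 15.2, 16.5 and 17.1 CPM in cadmium libraries 1 to 3, so the groups overlapped. Its log2 fold change was 0.09 ± 0.08 (SE; 95% interval -0.08 to 0.27; edgeR adjusted p = 0.35). Snhg8 rested on 599 to 693 counts a library, and Snhg1, which rose, on 458 to 682. Snhg3 (Entrez 399101, chromosome 4), host of Snora73a and Snora73b, was at 6.51, 5.55 and 5.66 CPM in control libraries 1 to 3, and at 6.37, 6.98 and 7.13 CPM in cadmium libraries 1 to 3. Control replicate 1 overlapped the cadmium range. Its log2 fold change, 0.21 ± 0.11 (SE; 95% interval -0.03 to 0.45; edgeR adjusted p = 0.14), was of the size seen in Gas5 and rested on 232 to 289 counts a library. Snhg3 was called in limma on log2(FPKM + 0.1) and on log2(FPKM + 1) (adjusted p = 0.045 and 0.044), and not in limma on log2(FPKM + 0.1) with no FPKM minimum (adjusted p = 0.10).

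Snhg12 (Entrez 100039864, chromosome 4), which carries both kinds of snoRNA, alone among the 7 had a negative fitted value. It was at 5.80, 7.13 and 6.10 CPM in control libraries 1 to 3, and at 5.71, 6.13 and 6.31 CPM in cadmium libraries 1 to 3. The cadmium values lay largely within the control range, which was stretched by control replicate 2. The log2 fold change was -0.07 ± 0.12 (SE; 95% interval -0.32 to 0.18; edgeR adjusted p = 0.66) and changed sign without control replicate 2 (0.02, adjusted p = 0.90). With 230 to 298 counts a library, the counting coefficient of variation was 6.17% in control libraries and the observed one 10.9%.

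By named snoRNAs, all 4 box C/D hosts thus rose, where 23.1% of all genes tested rose. The 2 box H/ACA hosts and the host of both kinds were not called, although Snhg3 (0.21) had a fitted value near that of Gas5 (0.20). The split by class was not among the planned comparisons, and the difference between these classes was not tested. In other noncoding hosts few genes could be classed. Of those with named box C/D snoRNAs only, 0 of 3 tested were called (Snhg14, Snhg18 and Zfas1). Of those with named box H/ACA snoRNAs only, Snhg15 rose and Dancr was not called. The other 8 tested hosts had no snoRNA class here, among them 3 of the 4 that rose (Snhg11, Snhg16 and Snhg17).

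Differences within the set were examined by taking each host's log2 CPM minus the mean of the other 6 in the same library. Snhg1 stood at -0.16 ± 0.09 in control and 0.11 ± 0.05 in cadmium libraries, a shift of 0.28, and Snhg12 at -1.25 ± 0.20 and -1.57 ± 0.03, a shift of -0.32 (SD, n = 3). Snhg5 shifted by 0.10 and Snhg8 by -0.13. The groups did not overlap for these 4 hosts, although for Snhg5 and Snhg8 the ranges met at 2 decimals. For each of the 4, the two-sided exact permutation p was 0.1 (adjusted p = 0.175 over the 7 hosts), and 3 libraries against 3 allow no p below 0.1. Gas5, Snhg3 and Snhg6 shifted by -0.01, 0.00 and 0.08 and overlapped (exact permutation p = 0.9, 1 and 0.2). Since each host is compared with a mean that holds the others, these 7 values are not independent. In CPM, control replicate 1 was the highest of its group in 5 of 7 hosts and control replicate 2 the lowest in 4 of 7. Likewise, cadmium replicate 1 was the lowest of its group in 5 of 7 hosts and cadmium replicate 3 the highest in 5 of 7.

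**Figure D3:**
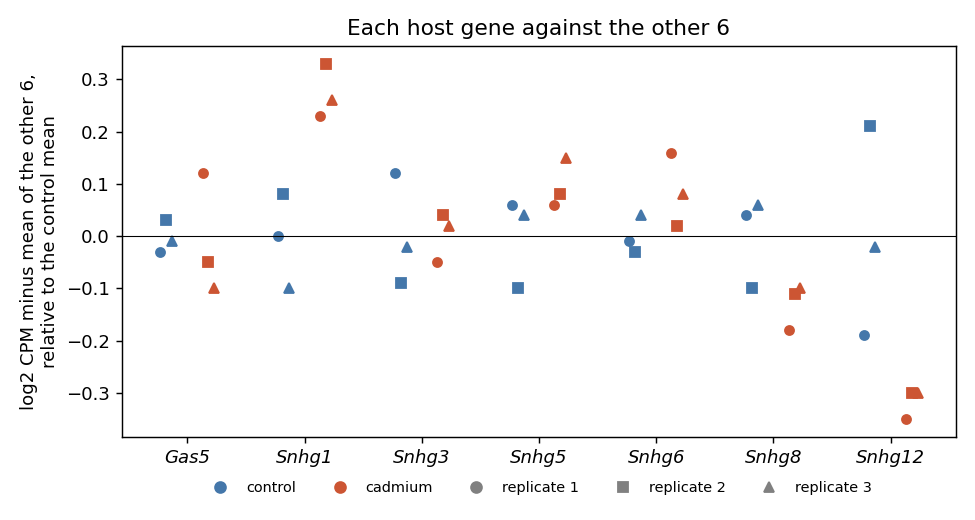
Log2 CPM of each host gene minus the mean log2 CPM of the other 6 in the same library, drawn relative to its control mean, so that 0 is the control average. Snhg1 lies above its control points in the 3 cadmium libraries and Snhg12 below them, with Gas5, Snhg3 and Snhg6 overlapping.

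Genes that share a locus with a host bear on what was counted, because no strand setting is known for the counts and reads of overlapping genes then cannot be told apart. Neighbours are by RefSeq names on GRCm38.p6. Snhg1 lies between Slc3a2, which encodes the heavy chain of amino acid transporters, and Wdr74, which encodes a nucleolar protein. Slc3a2 went from 203 ± 5.62 to 248 ± 12.4 CPM (log2 fold change 0.29 ± 0.04, edgeR adjusted p = 0.0001). Wdr74 went from 19.7 ± 1.22 to 25.7 ± 1.58 CPM (0.38 ± 0.07, adjusted p = 0.00067). Both neighbours rose, where 23.1% of all genes tested rose. Next to Snhg5, the RNA-binding protein gene Syncrip rose (0.34 ± 0.07, edgeR adjusted p = 0.0013). Slc3a2, Wdr74 and Syncrip flank their hosts and were not annotated as overlapping them. Other flanking genes were not called: Cenpl by Gas5 (0.08 ± 0.07, edgeR adjusted p = 0.37), Phactr4 by Snhg3 (-0.03 ± 0.05, adjusted p = 0.61) and Prss12 by Snhg8 (0.42 ± 0.31, adjusted p = 0.29).

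Rcc1, which encodes the exchange factor of the GTPase Ran, overlaps Snhg3 on the same strand in GENCODE and is its neighbour in RefSeq. Rcc1 rose from 65.7 ± 3.71 to 93.8 ± 2.51 CPM (0.51 ± 0.05, edgeR adjusted p = 2.5e-06), and its part in the Snhg3 counts was not tested. Around Gas5, Zbtb37 on the opposite strand was at 30.3 ± 2.16 and 30.5 ± 2.56 CPM (0.01 ± 0.07, edgeR adjusted p = 0.92). Mcmdc2, which overlaps Snhg6 on the opposite strand, did not pass the filter on low counts, and the genes on either side of Snhg6 went opposite ways. Sgk3 on one side fell (-0.17 ± 0.06, edgeR adjusted p = 0.034) and Tcf24 on the other rose from 0.452 ± 0.0409 to 1.05 ± 0.165 CPM (1.21 ± 0.30, adjusted p = 0.0047). Near Snhg12, Trnau1ap, which encodes a factor of selenocysteine tRNA, rose (0.15 ± 0.06, edgeR adjusted p = 0.036) and Rab42 fell (-0.87 ± 0.25, adjusted p = 0.011).

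Of 14 other noncoding snoRNA hosts, 13 were tested, 4 rose and 0 fell, with a median log2 fold change of 0.11, where 23.1% of all genes tested rose. The 13 had a lower median than the 7 hosts (0.21). The 4 that rose, picked here by their calls, had fitted values above those of the 7 hosts, and neither difference was tested. Snhg11, known as a neuronal transcript, was at 4.24, 3.66 and 2.99 CPM in control libraries 1 to 3, and at 8.91, 5.89 and 6.41 CPM in cadmium libraries 1 to 3, completely apart, with a log2 fold change of 0.96 ± 0.17 (edgeR adjusted p = 0.00042). Snhg15 rose from 4.52 ± 0.210 to 6.83 ± 0.364 CPM (0.60 ± 0.11), Snhg16 from 2.61 ± 0.439 to 3.79 ± 0.204 CPM (0.53 ± 0.16) and Snhg17 from 6.26 ± 0.541 to 8.92 ± 0.919 CPM (0.51 ± 0.11; edgeR adjusted p = 0.00059, 0.014 and 0.0019 in this order).

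The other 9 were not called. Zfas1, which carries box C/D snoRNAs, was at 15.3 ± 2.10 and 16.5 ± 0.621 CPM (0.10 ± 0.09, edgeR adjusted p = 0.39). Snhg7 had the lowest fitted value (-0.37 ± 0.19, adjusted p = 0.13), at 2.01 to 2.56 CPM in control and 1.65 to 1.89 CPM in cadmium libraries, ranges that did not overlap. Snhg4 (0.34), Dancr (0.27), Snhg20 (0.11), Snhg14 (0.02), Snhg18 (-0.06), Epb41l4aos (-0.09) and Snhg10 (-0.13) had intervals that included 0. Snhg9 had 0 to 7 counts a library and was not tested.

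**Figure D4:**
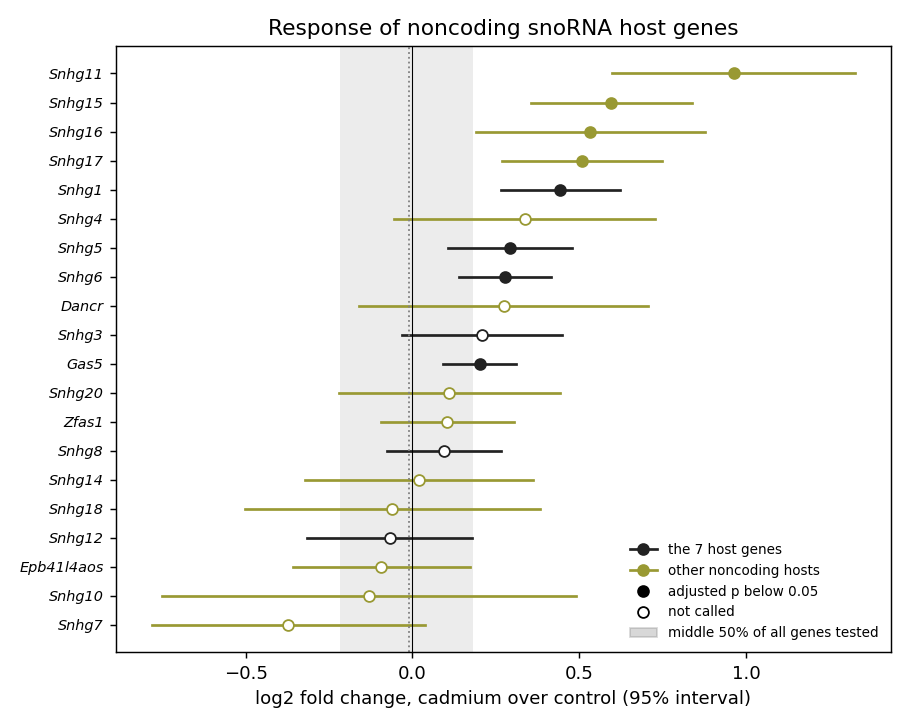
Log2 fold change (cadmium over control) with its 95% interval for the 7 host genes (black) and 13 other noncoding snoRNA hosts (olive), filled where the edgeR adjusted p was below 0.05, over a grey band that holds the middle 50% of all genes tested. Of the 20 hosts, 8 are filled, all above 0, with Snhg11 highest at 0.96. Of all genes tested, 45.5% were called in either direction and 23.1% rose.

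Protein-coding genes that carry snoRNAs, most of which encode ribosomal proteins and translation factors, rose in 19 of 28 cases and fell in 0. Their median log2 fold change was 0.15, where 23.1% of all genes tested rose and 22.4% fell. Eif4a1 (0.40 ± 0.04), which encodes a translation initiation helicase, and Ncl (0.43 ± 0.05), which encodes nucleolin, had the smallest p. Reads of ribosomal protein genes can be shared with processed pseudogenes, which was not tested.

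Transcripts of the core proteins that bind snoRNAs rose, where 23.1% of all genes tested rose. All 4 box C/D core genes rose, with a median of 0.55. Nop56 went from 55.3 ± 6.79 to 92.2 ± 4.19 CPM and Fbl, which encodes the methyltransferase fibrillarin, from 108 ± 2.85 to 148 ± 6.94 CPM (0.45 ± 0.05). Nop58 (0.64 ± 0.08) and Snu13 (0.28 ± 0.05) rose as well. All 4 box H/ACA core genes rose, with a median of 0.49. Dkc1, which encodes the pseudouridine synthase dyskerin, went from 26.5 ± 3.79 to 44.6 ± 0.821 CPM (0.75 ± 0.08), and Gar1 (0.63 ± 0.07), Nhp2 (0.35 ± 0.05) and Nop10 (0.19 ± 0.06) also rose (edgeR adjusted p at most 0.017 for these 8 genes). The groups overlapped for Nop10. Of the box H/ACA genes, 3 rose without control replicate 1, cadmium replicate 2 or cadmium replicate 3, and in limma with no FPKM minimum.

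Of 10 genes for the assembly of snoRNPs, 8 rose and 0 fell, with a median of 0.38, where 23.1% of all genes tested rose. The ATPase genes Ruvbl1 (0.44 ± 0.06) and Ruvbl2 (0.37 ± 0.05) had the smallest p. The box H/ACA protein genes thus rose while neither box H/ACA host among the 7 was called. Yet the fitted value of Snhg3 (0.21) was near that of Gas5 (0.20), which rose. No test of the difference between the protein genes and the hosts was made.

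**Figure D5:**
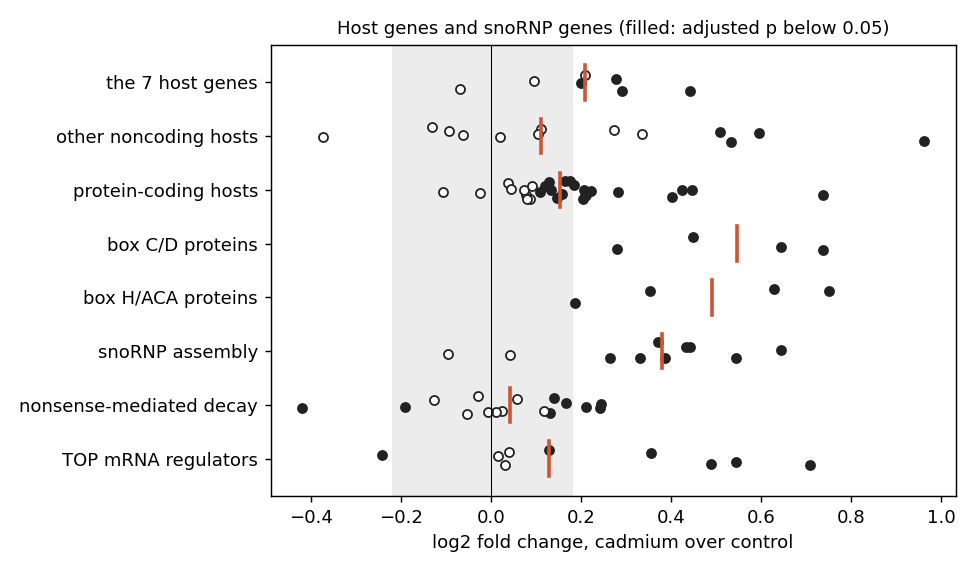
Log2 fold change (cadmium over control) of each gene in 8 lists, 1 list per row, with filled points for an edgeR adjusted p below 0.05, orange lines for list medians and a grey band for the middle 50% of all genes tested. The medians are 0.21 for the 7 host genes, 0.55 and 0.49 for the box C/D and box H/ACA protein genes, and 0.04 for nonsense-mediated decay genes.

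Genes of nonsense-mediated decay, which degrades spliced host transcripts, were mixed: of 16, 6 rose and 2 fell, and the median was 0.04, where 23.1% of all genes tested rose and 22.4% fell. Without cadmium replicate 2, 3 rose. Eif4a3 (0.24 ± 0.04) and Smg5 (0.24 ± 0.05) rose, and Pnrc2 (-0.42 ± 0.05, 210 ± 8.52 to 157 ± 9.76 CPM) and Upf2 (-0.19 ± 0.07) fell. The Upf2 call was near the threshold (edgeR adjusted p = 0.048). Of this list, 1 gene fell in place of 2 in DESeq2, with no filter, in all 3 limma fits, with the replicate block, and without any 1 library other than control replicate 3. Upf1, the central helicase of the pathway, chosen here after its values were seen, was at 109 ± 2.17 and 114 ± 3.37 CPM (0.06 ± 0.04, adjusted p = 0.29). Of 5 stress transcripts known as targets of this decay, Atf4 (96.8 ± 3.83 to 131 ± 1.38 CPM, 0.43 ± 0.04) and Atf3 (0.69 ± 0.25) rose and 0 fell, with overlapping groups for Atf3. Only 1 of the 5 rose without control replicate 1, control replicate 2 or cadmium replicate 2.

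Of 9 genes that act on TOP mRNAs, 5 rose and 1 fell, with a median of 0.13. Among all genes tested, 23.1% rose and 22.4% fell. Eif4ebp1, which encodes a translation repressor under mTOR control, rose from 33.4 ± 2.03 to 54.6 ± 4.17 CPM (0.71 ± 0.07). Larp1, which encodes a protein that binds the capped TOP tract, rose from 88.1 ± 7.96 to 124 ± 1.10 CPM (0.49 ± 0.06). Rps6kb2, an S6 kinase gene, fell (-0.24 ± 0.09, edgeR adjusted p = 0.037), with overlapping groups. That call was lost in limma with no FPKM minimum and without any 1 library other than control replicate 1.

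Genes whose profile over the 6 libraries was most like the mean standardised profile of the 7 hosts were Tdg (Pearson r = 0.998), Nphp4 (0.995), Mlx (0.994), Psmg2 (0.994) and Scrn1 (0.991), out of 10787 genes averaging 5 CPM or more. These 5 had log2 fold changes of 0.13 to 0.34. The points share the 2 groups and the library scaling, and 1515 genes had r above 0.9. Within the set, the profile of each host correlated with the mean profile of the other 6 at r = 0.70 to 0.95 over the 6 libraries, except for Snhg12 at r = -0.36.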

How the data were processed

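mRNA enriched from total RNA, per the labels' protocols, was sequenced as 6 libraries in 2 groups, labelled by treatment. The authors deposited whole read counts for each gene, and the deposited FPKM values equalled count divided by library total and by 1 length per gene (largest relative deviation 1.63e-08). Build GRCm39, HTSeq 0.11.2, HISAT2 2.1.0, DESeq2 1.22.2 and fastp 0.20.1 are listed, with no roles, in the submitters' processing notes. The annotation and strand setting are not given in the sources used here. GENCODE M21 and RefSeq on GRCm38 served only for names, neighbours and sequences.

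Genes were filtered with filterByExpr (minimum count 10, minimum total 15), which kept 99.96% of counts, and fitted with edgeR 4.0.16 in R 4.3.3 (TMM, robust quasi-likelihood, group only). P-values are two-sided and adjusted by Benjamini-Hochberg over all genes tested, with a threshold of 0.05. SE is the absolute log2 fold change over the square root of F. The fit was also run on simulated counts as a check of the code, with the same spread set for every gene. That setting is simpler than these libraries, and no result here rests on it. Replicate pairs differed by a chi-square of 3.56 to 13.6 per degree of freedom, so none repeated another within sampling noise. Depth limits precision, with counting variation of 2.18% to 6.46% for the 7 hosts. Alternatives used limma 3.58.1 on FPKM (pseudocounts 0.1 and 1, with a minimum of 0.5 FPKM in 3 libraries or none), DESeq2 1.42.0, other scalings and filters, a replicate block and leaving out each library. Named genes are the hosts, their neighbours, all tested noncoding hosts, up to 4 genes per list by smallest p in each direction, and the 5 most like profiles. The members and lists were chosen with earlier results of these data known. One neighbouring gene is not reported here. No gene-set test was run.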

Additional observations from a re-analysis of the deposited data

How the results depend on the processing

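Across 16 alternatives, 3 to 5 of the 7 hosts rose and 0 fell. Gas5, Snhg1 and Snhg6 kept their calls in all 16, with log2 fold changes of 0.17 to 0.22, 0.39 to 0.49 and 0.26 to 0.30. The Snhg5 value ranged from 0.24 to 0.34 on leaving out 1 library, and its call was lost in 2 such cases. Snhg12 ranged from -0.13 to 0.02 and reversed in 1 case. Snhg3 was called in limma on log2(FPKM + 0.1) at 0.20 and on log2(FPKM + 1) at 0.19. Snhg8 stayed uncalled in all 16. The cause of these changes was not tested. Under the scalings the median of all genes lay between -0.02 and -0.01.

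Counts in the other lists that moved by more than 1.5 times, or to or from 0, were these. The protein-coding hosts that fell became 1 under upper-quartile scaling, with library totals only and with at least 5 CPM in 3 libraries, against 0. The noncoding hosts that fell became 1 in the 3 limma fits, against 0, as did the snoRNP assembly genes in limma on log2(FPKM + 0.1). The decay genes that fell became 1 in DESeq2, with no filter on low counts, in the 3 limma fits and with the replicate block, against 2. The stress transcripts that rose became 1 with at least 5 CPM in 3 libraries and in limma with no FPKM minimum, against 2. The TOP regulators that fell became 0 in limma with no FPKM minimum, against 1. On leaving out 1 library, decay genes that rose ranged from 3 (without cadmium replicate 2) to 6 and those that fell from 1 to 2. Smaller moves were seen as well: protein-coding hosts that rose ranged from 15 to 24 against 19, other noncoding hosts from 3 to 4, box H/ACA genes from 3 to 4 and TOP regulators from 4 to 5. Stress transcripts that rose numbered 3 in 2 limma fits, and ranged on leaving out 1 library from 1 to 3. On leaving out 1 library, TOP regulators that fell and protein-coding hosts that fell each ranged from 0 to 1. Of every 1000000 of summed FPKM the 7 hosts took 524 and 603 in control and cadmium libraries.

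Pairing of libraries by replicate number cannot be decided from these values, since deviations from a mean of 3 libraries are tied to each other. Deviations of same-numbered libraries from their group means correlated at 0.023, 0.052 and -0.011, and those of differently numbered libraries at -0.049 to 0.028. With the replicate block 4 hosts rose, 0 fell and no call of a host changed. For Snhg3 and Snhg12, which had the lowest counts, the intervals give the changes that these data do not exclude.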
